A study of Mus musculus with 2 samples.

Results

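The enzymes of peroxisomal β-oxidation were followed here through 9 genes, *Acox2*, *Acox3*, *Ehhadh*, *Hsd17b4*, *Acaa1a*, *Acaa1b*, *Scp2*, *Eci2* and *Decr2*, out of 19324 genes named on the array. The genes were chosen with earlier results of these data known, so the counts and shares below describe them and test nothing. Their probesets (sets of short probes that read a transcript) were taken by gene symbol alone, and 17 carried these names. Of these, 15 named 1 gene and 2 named *Acaa1a* and *Acaa1b* together. The RNA came from the small intestine of male mice of the inbred strain C57BL/6J that were 4 months old and received semisynthetic high-fat diets (20% fat by weight) for 4 weeks. The control diet, sHFf, had flax-seed oil, which supplies the n-3 precursor ALA, for all of its fat, and in the EPA&DHA diet, sHFf-F2, 44% of the lipids were exchanged for a concentrate with 6% EPA and 51% DHA. Each diet was given to 12 mice. A single array per diet was hybridized with pooled RNA, from 10 mice for control and from 11 for EPA&DHA. On the arrays, differences between mice were therefore not measured, and nothing could be tested from the array values. The methods describe scraped epithelial cells and the labels describe complete small intestine, so the mixture of cells in the RNA is not settled. In such bulk RNA, fewer cells of a type and less RNA per cell cannot be told apart.

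Peroxisomes shorten very long chain, branched and polyunsaturated fatty acids, which mitochondria handle poorly, by repeated rounds of the same reactions. An acyl-CoA oxidase introduces a double bond, a bifunctional enzyme adds water and oxidizes the product, and a thiolase splits off acetyl-CoA or propionyl-CoA. Double bonds already present in unsaturated chains such as EPA and DHA are moved or reduced by auxiliary enzymes before a round can go on, and the last step in the synthesis of DHA itself is a round of peroxisomal β-oxidation. Many genes of the pathway are known targets of the fatty acid receptor PPARα in liver.

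On the whole arrays, 24461 of 45037 probesets had a geometric mean signal of at least 50 and are called kept. Their median log2 ratio of EPA&DHA over control was -0.04. The spread of the log2 ratios of the 500 kept probesets nearest in signal, as a robust SD, is called the local SD and was the only measure of error at hand. It includes any true difference between the pools as well as noise. When the kept probesets were split by signal into 4 groups of the same size, the robust SD was 0.62 in the dimmest and 0.24 in the brightest group. In 5350 genes with several kept probesets, the difference in log2 ratio between the 2 brightest of a gene had an SD of 0.53, so disagreement between probesets of a gene was common. The 27 probesets of poly-A controls, bacterial transcripts added to the RNA, had a median ratio of 1.25, and the part of this shift in the values below was not tested. The markers of absorptive enterocytes had high signals on both arrays, in sum 334973 for control and 294687 for EPA&DHA. Of 11 measured genes 0 were at least 1.5-fold apart, against 6.24% of all genes higher and 8.02% lower by as much. The log2 ratio was below 0 in 9 of the 11.

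Most of the enzymes had higher signals on the EPA&DHA array. Of the 17 probesets 16 were kept, and of these 12 had a log2 ratio above 0, against 11150 of all 24461 kept probesets. At least 1.5-fold higher were 10 of 16, whereas 8.11% of all kept probesets passed this level. None of the 16 was at least 1.5-fold lower, a level passed by 9.01% of all kept probesets. At least 2-fold higher were 3 of 16, those of *Acox2*, *Acaa1b* and *Eci2*, against 2.31% of all. The median log2 ratio of the kept probesets of these enzymes was 0.71. Bright probesets vary less, and 11 of the 16 were in the brightest of the 4 signal groups. There, 8 of 11 were at least 1.5-fold higher, against 4.09% of that group, and 0 of 11 were lower by as much, against 1.75%. In the next group 2 of 5 were higher, against 5.09%, and 0 of 5 lower, against 3.65%. More than 2 local SDs above 0 were 11 of 16, compared with 4.15% of all kept probesets.

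**Figure D1:**
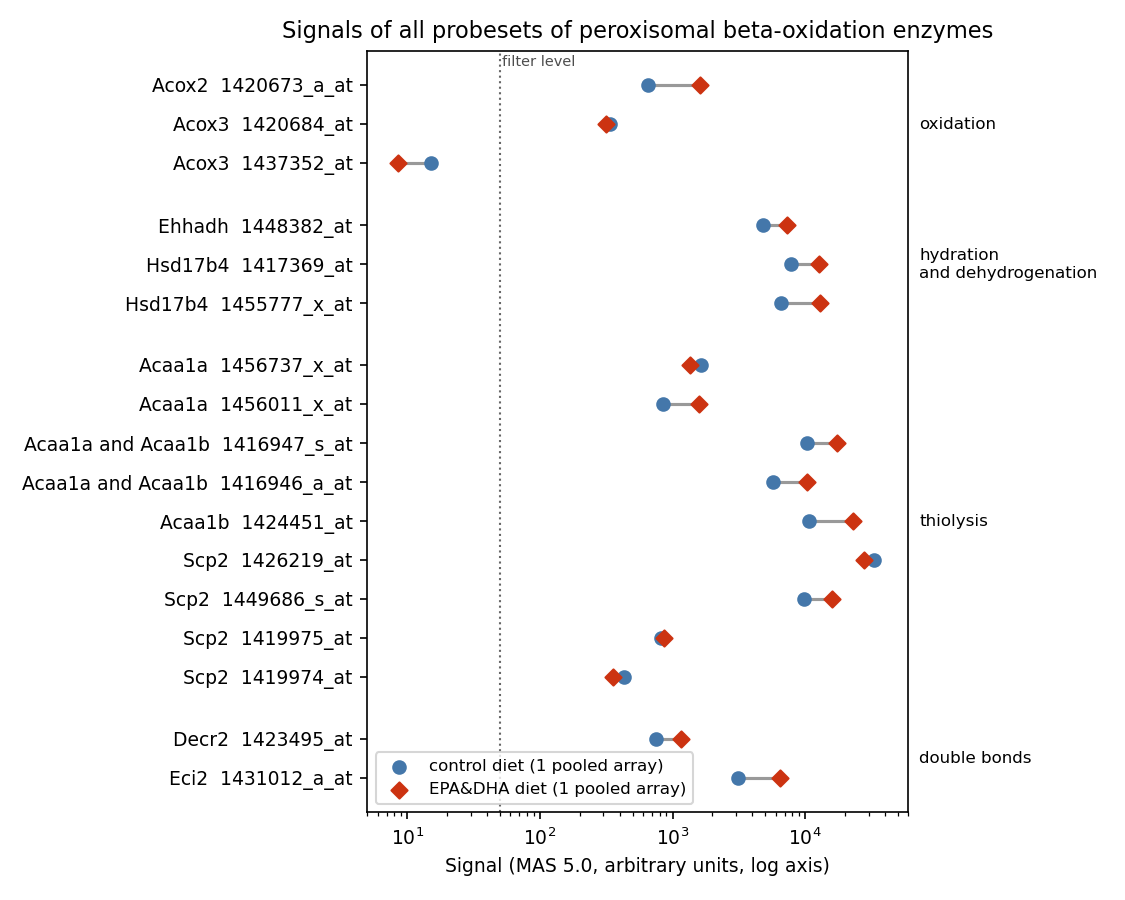
Signal (x axis, MAS 5.0 units, log scale) of each of the 17 probesets on the control array (blue circles) and the EPA&DHA array (red diamonds), grouped by reaction step, with the filter level of 50 as a dotted line. Red lies to the right of blue for 12 of the 16 kept probesets, and the dim probeset of Acox3 lies under the filter level on both arrays.

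By enzyme, the order of the log2 ratios was *Acox2*, *Acaa1b*, *Eci2*, *Hsd17b4*, *Decr2*, *Ehhadh*, *Acox3*, *Acaa1a* and *Scp2* when each gene was represented by its brightest probeset that names this gene alone. The first 3 of this order lay between 1.06 and 1.30, a range about as wide as their local SDs, and the last 3 between -0.26 and -0.11, a narrower one. The order within these groups of 3 is therefore not beyond the spread. The median of the 9 genes was 0.62, and 5 of 9 were at least 1.5-fold higher, against 6.24% of 11756 genes with a value. At least 1.5-fold lower were 0 of 9, against 8.02%. The places of *Acaa1a* and *Scp2* depended on the probeset, as described below for each.

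The window of 250 bases before the transcription start is shown for 4 of the genes, from the RefSeq promoter table of build GRCm38.p6, read 5′ to 3′ on the strand of the gene. *Acox2* is shown for the highest ratio, *Acaa1a* and *Acaa1b* as near copies whose probesets differed, and *Scp2* for probesets on both sides of 0. Capitals mark matches to the sequence to which PPARα binds with its partner RXR, AGGTCA repeated in the same direction after 1 free base with up to 3 of its 12 fixed letters different, or to a single AGGTCA, searched on both strands. The single motif is contained in the repeat.
Acox2, chr14:8259020-8259269, minus strand: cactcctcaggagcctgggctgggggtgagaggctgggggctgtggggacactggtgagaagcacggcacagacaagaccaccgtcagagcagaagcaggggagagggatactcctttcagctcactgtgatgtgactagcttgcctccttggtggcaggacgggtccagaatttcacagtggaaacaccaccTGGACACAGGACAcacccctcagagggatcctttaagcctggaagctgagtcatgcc
Acaa1a, chr9:119341044-119341293, plus strand: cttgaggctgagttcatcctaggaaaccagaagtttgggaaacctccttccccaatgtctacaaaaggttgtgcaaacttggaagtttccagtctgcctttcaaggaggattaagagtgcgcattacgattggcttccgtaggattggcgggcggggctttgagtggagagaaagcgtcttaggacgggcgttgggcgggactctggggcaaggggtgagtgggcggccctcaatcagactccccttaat
Acaa1b, chr9:119157094-119157343, minus strand: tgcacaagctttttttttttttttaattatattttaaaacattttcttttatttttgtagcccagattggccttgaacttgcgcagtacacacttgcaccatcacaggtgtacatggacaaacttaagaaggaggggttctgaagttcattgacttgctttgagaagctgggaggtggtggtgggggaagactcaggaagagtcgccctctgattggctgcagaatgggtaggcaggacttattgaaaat
Scp2, chr4:108118548-108118797, minus strand: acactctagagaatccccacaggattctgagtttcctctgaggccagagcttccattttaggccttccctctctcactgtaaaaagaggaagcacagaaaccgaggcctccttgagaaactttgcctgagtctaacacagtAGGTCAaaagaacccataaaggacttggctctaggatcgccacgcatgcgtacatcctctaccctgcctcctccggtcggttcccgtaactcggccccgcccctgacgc
Windows were found for 8 of the 9 genes, 9 in all, since *Acox2* has 2 annotated starts and the outer window is shown. The repeat was matched in 2 of the 9 windows, both of *Acox2* and by the same bases, with 3 letters different. They lie 57 bases before the start shown and 237 before the other, and 21.3% of the 32851 windows of this length in the table held such a match. The single AGGTCA was found in 1 of the 9 windows, that of *Scp2*, starting 109 bases before the start, and 14.0% of all windows held it. Most of the genes with higher signals had neither in this window, which says nothing of sites elsewhere. The windows of *Acaa1a* and *Acaa1b*, 2 genes on chromosome 9 with 4 protein-coding genes between them, were identical at 48.2% of aligned positions. The 27 other pairs of windows ranged from 40.8% to 48.0%, so the neighbours were hardly more alike here than the other pairs.

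The oxidation step was split between its enzymes. *Acox2*, the oxidase that acts on branched chains and on the side chain of bile acid precursors, read 650 with control RNA and 1599 with EPA&DHA RNA (probeset 1420673_a_at). The fold was 2.46 and the log2 ratio 1.30, where the local SD was 0.25, and this was the highest of all probesets of these enzymes. *Acox3*, the oxidase for pristanic acid and other branched chains, had signals of 338 and 313 on probeset 1420684_at, a log2 ratio of -0.11 with a local SD of 0.34. That difference was within the local spread. The other probeset of *Acox3*, 1437352_at, had signals of 15.2 and 8.5, below the level of the filter on both arrays. Its ratio was 1.78-fold lower. The local SD of 0.75 given for it is that of the dimmest kept probesets, and the spread at such low signals was not measured.

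The bifunctional enzymes, which carry out hydration and dehydrogenation, were higher on each of their probesets. *Ehhadh*, the L-bifunctional enzyme, which also takes part in the breakdown of dicarboxylic acids, gave 4841 for control and 7258 for EPA&DHA on probeset 1448382_at. Its ratio of 1.4992 fell just short of the 1.5-fold level and was 2.37 times the local SD on the log2 scale. *Hsd17b4*, the D-bifunctional enzyme, which serves branched and very long chains and belongs by sequence to the 17β-hydroxysteroid dehydrogenases, was read by 2 bright probesets. Probeset 1417369_at gave 7876 for control and 12812 for EPA&DHA, which is 1.63-fold higher. On 1455777_x_at, where some probes may also bind related sequences, the signals were 6547 and 13015, 1.99-fold higher. The log2 ratios of 0.70 and 0.99 compare with local SDs of 0.24 and 0.23, and the gap of 0.29 between them is below the SD of 0.53 found between probesets of a gene.

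The thiolases made up the largest group of probesets, with log2 ratios on both sides of 0. *Acaa1a* and *Acaa1b* encode the straight chain 3-ketoacyl-CoA thiolases A and B, and 5 probesets read either or both. On 1424451_at, assigned to *Acaa1b* alone, the arrays read 10648 for control and 22770 for EPA&DHA. The fold was 2.14 and the log2 ratio 1.10, where the local SD was 0.21. The shared probeset 1416947_s_at had 10337 and 17276, and the shared 1416946_a_at had 5678 and 10339, which is 1.67-fold and 1.82-fold higher. Thus 4 of the 5 probesets of this pair of genes were at least 1.5-fold higher, and the exception was an *Acaa1a* probeset. The 2 probesets that name *Acaa1a* alone went apart. Probeset 1456011_x_at read 842 for control and 1576 for EPA&DHA, 1.87-fold higher, and 1456737_x_at read 1630 and 1365, 1.19-fold lower. The gap of 1.16 between their log2 ratios was the largest within a gene of this group, and both are of the type in which some probes may bind related sequences. For *Acaa1a* as a gene of its own, the arrays therefore gave no settled direction, while the values for *Acaa1b* and for both genes together were higher. By PCR on RNA of single mice, the paper reported *Acaa1a* as significantly higher with EPA&DHA. The primers it lists for *Acaa1a* and *Acaa1b* are the same.

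*Scp2* encodes a long protein with a thiolase domain for branched chains, SCPx, and from a start further inside the gene the short sterol carrier protein 2, which binds lipids. Which of these transcripts each probeset reads was not examined here. Its brightest probeset, 1426219_at, read 33207 for control and 27711 for EPA&DHA, 1.20-fold lower. On 1449686_s_at the values were 9722 and 15999, so 1.65-fold higher, and the log2 ratio of 0.72 stands beside a local SD of 0.23. The remaining 2 had log2 ratios of 0.06 on 1419975_at, with signals of 820 and 856, and of -0.29 on 1419974_at, with 433 and 353. The probeset at 0.72 thus stood apart from the other 3, which lay between -0.29 and 0.06 and within 1.34 local SDs of 0. The mean over the 4 probesets was 0.06, and 1.01 separated the lowest from the highest.

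Of the genes followed here, both that deal with double bonds were higher. The isomerases *Ech1* and *Eci3*, placed below with the genes that support the matrix, had log2 ratios of 0.16 and 0.14. *Eci2*, an isomerase that shifts double bonds so that they fit the pathway, read 3093 for control and 6436 for EPA&DHA on 1431012_a_at. The fold was 2.08, and the log2 ratio of 1.06 was 4.72 times the local SD. *Decr2*, a dienoyl-CoA reductase of peroxisomes needed for chains with several double bonds, had signals of 757 and 1164 on 1423495_at. Its log2 ratio of 0.62 was 2.28 times the local SD of 0.27 and the fold was 1.54, so it passed the 1.5-fold level by little.

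**Figure D2:**
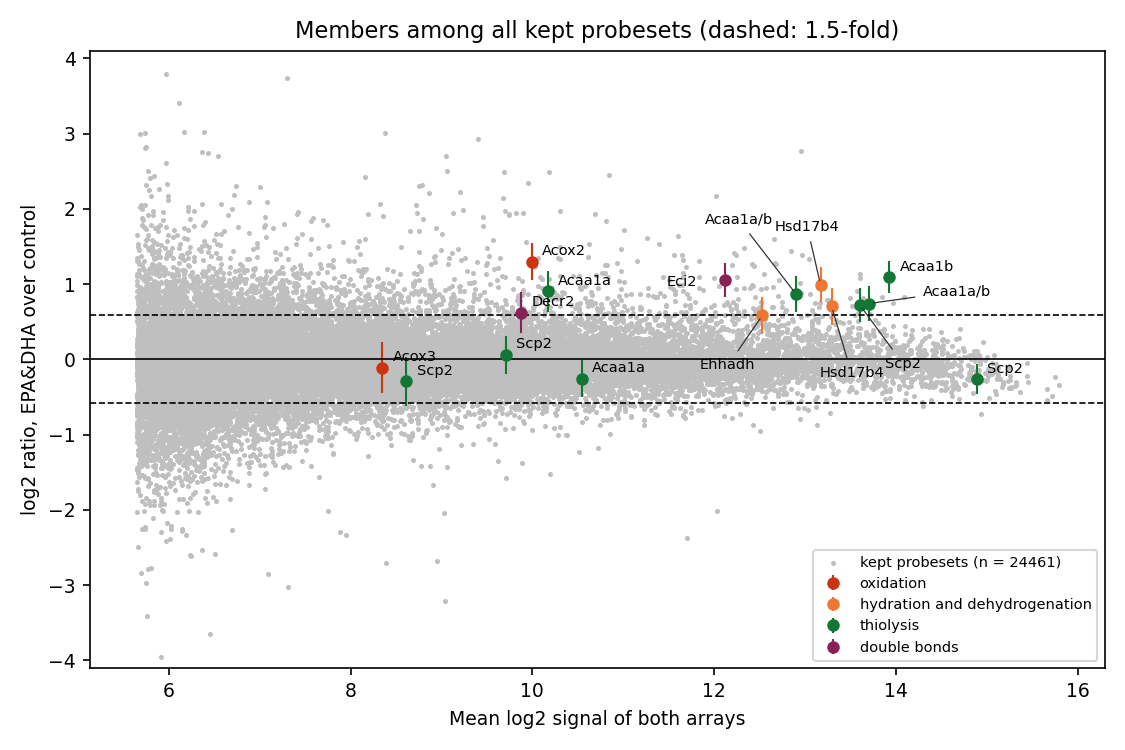
Log2 ratio of EPA&DHA over control (y axis) against the mean log2 signal of both arrays (x axis) for 24461 kept probesets (grey) and the 16 kept probesets of the enzymes, coloured by reaction step, with bars of 1 local SD each way and dashed lines at 1.5-fold. The enzymes lie in the bright part of the plot, 10 above the upper dashed line and none below the lower.

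The other genes that serve the pathway were grouped by role, each gene by its brightest kept probeset. Of 26 measured genes in these 5 groups 8 passed the 1.5-fold level upward and 0 downward, against 6.24% and 8.02% of all genes. The log2 ratio was above 0 in 22 of the 26, against 5118 of 11756 genes with a value. The median of the 26 was 0.41, against -0.05 over all genes. Of the genes that bring fatty acids to the peroxisome, *Acbd5*, a membrane protein that binds acyl-CoA, had a log2 ratio of 0.76. A dimmer kept probeset of *Acbd5*, with signals of 97.5 and 38.1, went the other way, at -1.36 with a local SD of 0.65. *Slc27a2*, which activates very long chain fatty acids, stood at 0.61. The transporter *Abcd3* stood at 0.36, with signals of 20392 and 26202. In α-oxidation and racemization of branched chains, the steps that prepare them for *Acox2* and *Acox3*, 1 of 5 genes passed 1.5-fold. This was *Aldh3a2*, a fatty aldehyde dehydrogenase, at 0.84, and *Phyh*, the hydroxylase of phytanic acid, was the lowest at 0.09.

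Among 8 genes that release products from the peroxisome, all had log2 ratios above 0 and 4 were at least 1.5-fold higher. *Acot3*, a peroxisomal thioesterase, had the highest ratio at 3.74, from a control signal of 43.1, under the filter level, to 575 on EPA&DHA, so that its size rests on a dim value. The thioesterases *Acot4* and *Acot6* stood at 1.00 and 0.66, and *Nudt7*, which degrades coenzyme A, at 0.62. *Nudt19*, an enzyme of the same kind, was at 0.08. In the group that supports the matrix, catalase (*Cat*), which removes the hydrogen peroxide made by the oxidases, read 7709 and 12632 on the brighter of its probesets, a fold of 1.64, and had a fold of 2.01 on the other. The remaining 5 of 6 genes were within 1.5-fold on their brightest probesets, down to -0.38 for *Tysnd1*, a protease that processes several of these enzymes. Among their other kept probesets, 1 of *Idh1*, an isocitrate dehydrogenase that makes NADPH, was 1.68-fold higher, and 1 of *Lonp2*, a peroxisomal protease, was 1.70-fold lower. The receptors and docking proteins that import the enzymes into the matrix, *Pex5*, *Pex7*, *Pex13* and *Pex14*, lay between -0.13 and 0.20.

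Mitochondria carry out the same chemistry with other enzymes. Of 11 such counterparts 2 passed the 1.5-fold level upward and 0 downward, with a median log2 ratio of 0.22, compared with 5 of 9 and 0.62 for the peroxisomal enzymes. With 1 array per diet, this difference between the groups could not be tested. Over all genes with a value, 6.24% passed the 1.5-fold level upward and 8.02% downward. With the mean over all kept probesets of a gene in place of the brightest, 4 of 11 counterparts passed it, with *Hadh* and *Hadhb* added, and still 5 of 9 peroxisomal enzymes. The higher ones by brightest probeset were the dehydrogenase *Acadl* at 0.69 and the thiolase *Acaa2* at 0.66. The other probesets of *Acaa2* stood at 0.98 and 0.95. At the same steps in the peroxisome, the oxidases *Acox2* and *Acox3* stood at 1.30 and -0.11 by brightest probeset. The thiolases *Acaa1b*, *Acaa1a* and *Scp2* stood at 1.10, -0.26 and -0.26. The mitochondrial isomerase *Eci1* and dienoyl-CoA reductase *Decr1* had log2 ratios of 0.14 and 0.22, whereas *Eci2* and *Decr2* stood at 1.06 and 0.62. *Ech1* and *Eci3*, of the group that supports the peroxisomal matrix, were near the mitochondrial values, at 0.16 and 0.14. *Hadh*, the mitochondrial hydroxyacyl-CoA dehydrogenase, was the lowest at -0.21 on its brightest probeset, while its dimmest kept one stood at 2.21. For *Hadhb*, which carries the thiolase activity of the trifunctional protein in mitochondria, the brightest probeset stood at 0.31 and the others at 1.24 and 0.63.

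**Figure D3:**
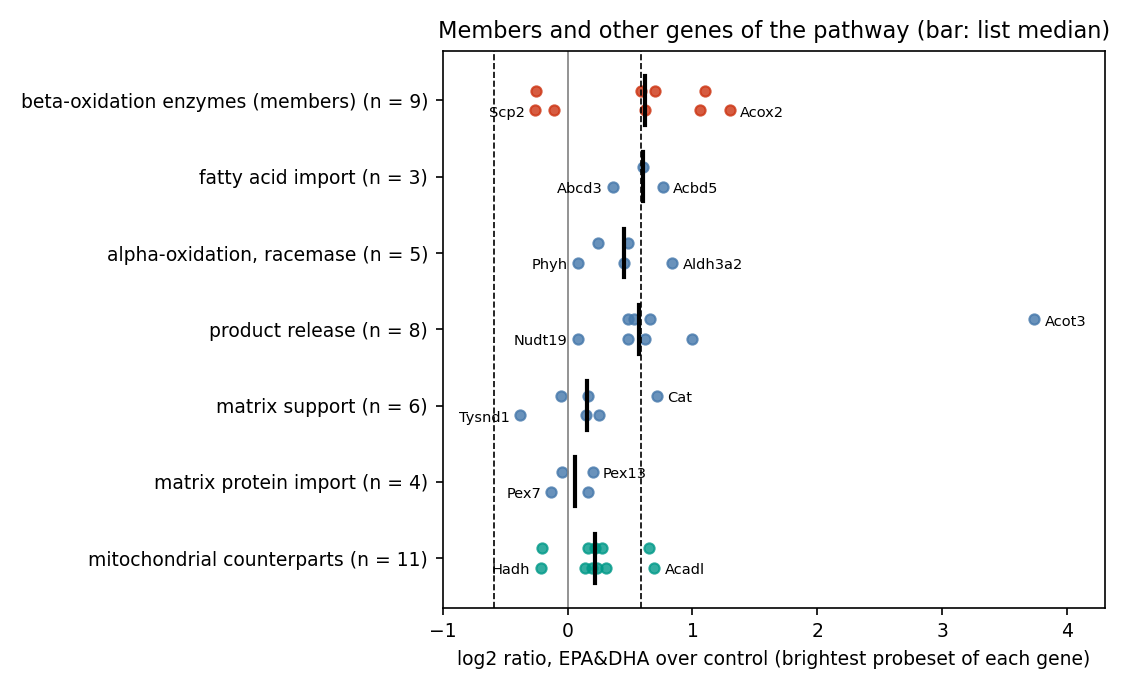
Log2 ratio of EPA&DHA over control (x axis) for each gene (points) by its brightest kept probeset, in the 9 enzymes (red), 5 groups of other peroxisomal genes (blue) and the mitochondrial counterparts (green), with black bars at the medians and dashed lines at 1.5-fold. The medians run from 0.62 for the enzymes down to 0.06 for matrix protein import, and the highest and lowest gene of each group are named.

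Markers of other cells and regions differed between the pools to different extents. Enzymes of the exocrine pancreas were higher on EPA&DHA for 9 of 9 measured genes, with summed signals of 6002 for control and 16577 for EPA&DHA, and their transcription factor *Ptf1a* was under 50 on both arrays. The part of such cells in the values of the peroxisomal enzymes was not tested. Of the hepatocyte markers, cells rich in these enzymes, 2 of 7 were measured, with sums over the list of 812 and 663, and *Alb*, *Ahsg*, *Fga* and *Fgb* were under 50 on both arrays. In smooth muscle and stroma 0 of 7 measured genes were 1.5-fold apart, against 6.24% of all genes higher and 8.02% lower by as much. The log2 ratio was below 0 in 6 of the 7, with sums of 2543 and 2220 and *Cnn1* under 50 on both. In B and plasma cells 3 of 6 were at least 1.5-fold lower, against 8.02% of all genes. The sum over that list nonetheless went from 13038 to 15992, through *Jchain*. Markers of the proximal and of the distal small intestine had 0 of 6 genes each at least 1.5-fold apart, against the same shares of all genes. Their sums were 38205 and 37464 for the proximal and 45027 and 43871 for the distal ones.

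The ratios of the enzymes changed little with the scaling of the arrays. Over 5 ways with different values, *Acox2* ranged from 1.24 to 1.34, *Acaa1b* from 1.09 to 1.13 and *Eci2* from 1.04 to 1.09. The 10 probesets at least 1.5-fold higher stayed above that level in each of the 5. *Ehhadh* ranged from 0.56 to 0.62 and crossed the 1.5-fold level in 2 of them. No probeset of the group changed the sign of its ratio under any of these scalings.

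**Figure D4:**
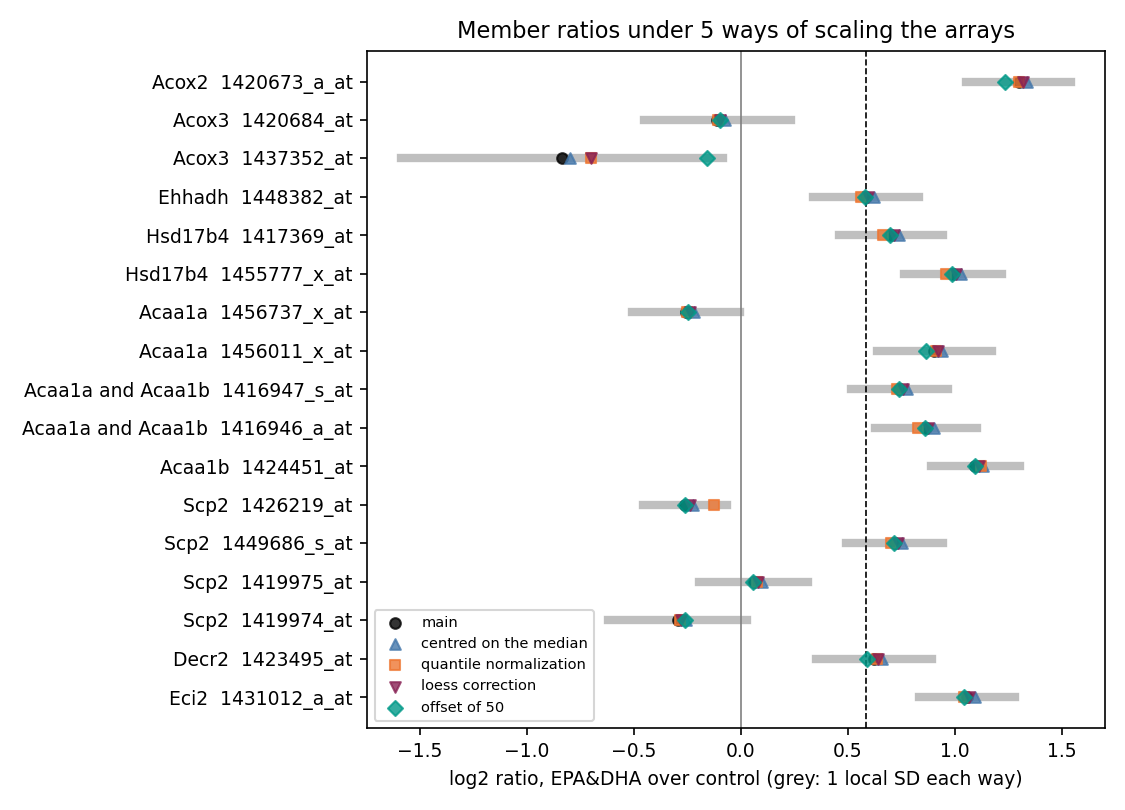
Log2 ratio of EPA&DHA over control (x axis) of the 17 probesets under 5 ways of scaling (symbols), with grey bars of 1 local SD each way around the value used and a dashed line at 1.5-fold. The symbols lie within the grey bars for each probeset, and only Ehhadh has symbols on both sides of the dashed line. The bar of the dim probeset of Acox3 is taken from the dimmest kept probesets.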

How the data were processed

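RNA of 1 pool per diet was hybridized by the authors to Affymetrix MOE430_2 arrays. The deposited values are intensity values per probeset, summarized by the authors with MAS 5.0 and scaled to a trimmed mean of 500; detection calls were not used here. Probesets were named from the platform annotation and a current RefSeq gene table. Of 45101 probesets, 64 controls were set aside, and 34945 named 1 gene, 932 several and 9160 none. Both arrays were scaled to the same 2% trimmed mean, and EPA&DHA was divided by control and expressed as log2. A geometric mean signal of at least 50 was required. Every probeset of the 9 genes is given. For the lists of other peroxisomal and of mitochondrial genes, the highest and lowest gene and genes at least 1.5-fold apart are named. For the lists of cell and region markers, counts and summed signals are given. Members and lists were chosen with earlier results of these data known. Groups came from sample titles. Alternatives changed the scaling, an offset, the filter and the choice of probesets. Code was tested on simulated data with planted ratios and noise smaller than the local SD, which checks the calculation and not the error of the arrays. The number of arrays, 1 per diet, limits the precision. Protein sequences were not analysed here. Tables were handled in pandas 2.3.3 and numpy 2.4.6 under Python 3.11.15, loess came from statsmodels 0.14.6, and plots from matplotlib 3.10.9.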

Additional observations from a re-analysis of the deposited data

How the results depend on the processing

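Scaling to the same trimmed mean left the deposited signals as they were, so that alternative could show nothing and is left out of these counts. Of 64 recomputed counts and medians, 61 stayed within 1.5 times the count or within the median local SD of 0.24 for a median, and 3 did not. Some probesets have names ending in x_at or s_at, a mark of possible binding to related sequences. Without these, the number of probesets of these enzymes at least 1.5-fold higher was 6 instead of 10, as fewer were counted. Probeset 1416946_a_at, shared by *Acaa1a* and *Acaa1b*, stayed in this count. Without a filter, 1 was at least 1.5-fold lower instead of 0, the dim probeset of *Acox3*. With the mean over the kept probesets of a gene, 4 instead of 2 mitochondrial counterparts were at least 1.5-fold higher. All 68 recomputed ratios of single probesets stayed within 1 local SD, which for the dim probeset of *Acox3* is that of the dimmest kept probesets. Of the kept probesets at least 1.5-fold apart, 47.4% (1983 higher, 2203 lower) were higher on EPA&DHA, and 53.1%, 54.3% and 55.1% after median centring, quantile normalization and loess correction. An offset of 50 added to each signal left 1089 higher and 1027 lower. No paired analysis was possible because each diet had 1 pooled array, and for the same reason no replicate could be left out.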
